A study of Mus musculus with 12 samples.

Results

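Annexins are calcium-dependent phospholipid-binding proteins, and this account covers the annexin genes of 12 RNA sequencing libraries from mouse kidney cortex. Members were the rows of the deposited gene count table named as 1 of 10 annexins, and 9 of the 10 had values among the 23378 genes of the table: Anxa1, Anxa2, Anxa3, Anxa4, Anxa5, Anxa6, Anxa7, Anxa9 and Anxa11. Anxa13 was not analysed here. Anxa1 was chosen by its measured diet effect, which differed between the sorted cell populations, so its values between diets and within each diet below are a description without a test. The other members were taken by name.

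All mice were C57BL/6 animals with the nNosCreERT2-mTmG genotype, in which Cre recombinase made by cells that express neuronal nitric oxide synthase switches a membrane reporter from red tdTomato to green GFP. Macula densa cells, the salt-sensing plaque beside the glomerulus, were sorted as green cells. The control cells were the most intensely red cells of the same cortex, meant to stand for the distal tubule and collecting duct. For 14 days mice ate control diet, or were treated with low salt chow while drinking water held 150 mg per litre of enalapril, which blocks angiotensin II formation. The latter libraries are called treated below. There were 2 macula densa libraries and 4 control-cell libraries on each diet. The labels give no age or sex, and they do not say whether a library came from 1 mouse or from pooled mice. For 8 of the 12 libraries, a number in the description is shared by a macula densa and a control-cell library of the same diet. The labels do not say what these numbers are, and the main fit did not pair the libraries. The p-values below therefore measure the spread between these libraries.

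Each annexin has a conserved core that binds acidic membrane phospholipids when calcium rises, and a variable amino-terminal tail that sets its partners. Annexin A1, a glucocorticoid-induced protein first described as an inhibitor of phospholipase A2, acts outside the cell on formyl peptide receptors. Annexin A2 forms a heterotetramer with S100A10 that organises membrane, actin and plasminogen activation at the cell surface. Annexins A4, A5, A6, A7 and A11 take part in membrane trafficking, repair and secretion.

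Promoter sequence was at hand for 7 of the 9 members, from RefSeq on GRCm38.p6, as 250 bases before and 50 bases after the annotated start. Sequences for 4 are shown because their genes had contrasting patterns. In macula densa libraries Anxa2 lay below the control cells of both diets. Anxa1 did so with control diet alone, as a description without a test, and lay among or above them under treatment. Anxa4 and Anxa11 did not pass the test of cell populations. Capitals mark every match, on either strand, to TATAAA (the TATA box), GGGCGG (the GC box), TGANTCA (the AP-1 site), AGAACA (a core of the glucocorticoid receptor site) or CCAAT. None of the matches overlapped another.
Anxa1, chr19:20390622-20390921, minus strand: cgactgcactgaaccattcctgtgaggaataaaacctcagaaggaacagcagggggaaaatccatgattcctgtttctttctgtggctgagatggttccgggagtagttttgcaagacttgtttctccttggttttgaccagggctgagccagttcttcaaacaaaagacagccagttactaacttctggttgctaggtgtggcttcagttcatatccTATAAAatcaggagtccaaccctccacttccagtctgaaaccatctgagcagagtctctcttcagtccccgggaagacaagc
Anxa2, chr9:69453433-69453732, plus strand: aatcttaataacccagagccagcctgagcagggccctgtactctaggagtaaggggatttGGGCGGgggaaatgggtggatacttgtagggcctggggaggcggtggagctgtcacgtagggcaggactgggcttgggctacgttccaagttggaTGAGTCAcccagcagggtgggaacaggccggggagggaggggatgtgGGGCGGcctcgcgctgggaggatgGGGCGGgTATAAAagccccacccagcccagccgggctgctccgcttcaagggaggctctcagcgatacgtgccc
Anxa4, chr6:86793535-86793834, minus strand: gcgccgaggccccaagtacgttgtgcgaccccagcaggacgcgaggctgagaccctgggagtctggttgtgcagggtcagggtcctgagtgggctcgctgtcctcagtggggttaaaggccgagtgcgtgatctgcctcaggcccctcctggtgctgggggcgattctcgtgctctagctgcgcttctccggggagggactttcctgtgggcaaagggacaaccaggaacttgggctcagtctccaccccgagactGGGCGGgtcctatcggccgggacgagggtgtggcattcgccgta
Anxa11, chr14:25841905-25842204, plus strand: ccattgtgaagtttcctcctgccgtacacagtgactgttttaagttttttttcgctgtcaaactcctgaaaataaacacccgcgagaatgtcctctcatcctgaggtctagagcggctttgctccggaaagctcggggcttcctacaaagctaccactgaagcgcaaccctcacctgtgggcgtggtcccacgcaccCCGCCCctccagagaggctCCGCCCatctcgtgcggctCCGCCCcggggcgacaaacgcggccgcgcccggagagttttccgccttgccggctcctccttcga

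Anxa1 and Anxa2 each held a TATAAA match, at -32 and -17 with the first transcribed base as 0, a motif found in 13.6% of the 32851 promoters of that length. The promoters of the other 5 members held none. Anxa2 also held 3 GC boxes and an AP-1 match at -95, and 35.7% and 7.81% of all promoters held these motifs. Anxa11 held 3 GC boxes and the Anxa4 promoter shown held 1. AGAACA, present in 19.0% of promoters, was not among the letters of the Anxa1 window. Another Anxa4 promoter, chr6:86775065-86775364, held AGAACA matches at -199 and -18 and no GC box. The GC content was 47.3% for Anxa1 and 63.7% for Anxa2, against a median of 52.7% over all promoters.

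Total counts per library ran from 4259020 to 14856542, of which nuclear protein-coding genes held 781257 to 2331481 and the annexins 602 to 1802. Values are CPM, counts scaled to a common library total after trimmed mean of M values (TMM) normalization, and 3 counts corresponded to 0.231 to 0.734 CPM. The macula densa markers Nos1, Pappa2, Ptgs2, Ptges, Slc12a1 and Avpr1a summed to 2151 to 3087 CPM in macula densa libraries and 44.6 to 434 CPM in control-cell libraries. Control-cell libraries also held the markers of other cells. Podocyte and endothelium markers together summed to 3087, 2506, 1649 and 111 CPM in control-cell replicates 1 to 4 on control diet, and to 527, 2156, 515 and 2238 CPM under treatment. In macula densa cells they summed to 347 and 49.2 CPM on control diet and 51.5 and 33.6 CPM when treated. The 8 collecting duct principal cell markers summed to 104 to 900 CPM in control cells. In such sorted samples, fewer cells of a type and less RNA per cell cannot be told apart.

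All 9 members passed the filter on low counts, and the 5 called between the cell populations were lower in macula densa cells. Averaged over both diets, 5 of the 9 were lower in macula densa cells and 0 higher by edgeR's quasi-likelihood test at an adjusted p of 0.05, where 13.9% of 14180 genes were called lower, 7.48% higher and 21.3% in all. The 5 were Anxa1, Anxa2, Anxa3, Anxa5 and Anxa9, so of the 8 members other than Anxa1, 4 were called lower and 0 higher. The median log2 fold change of the members was -0.58, against -0.06 for all genes tested. On control diet, of the 8 members other than Anxa1, 2 were called lower (Anxa2 and Anxa3; 3.92% of all genes) and 0 higher (2.69%; 6.61% in all). Under treatment 2 were lower (Anxa2 and Anxa3; 4.13%) and 0 higher (3.15%; 7.27% in all). On control diet the macula densa libraries of 4 of those 8 lay wholly below the control cells (Anxa2, Anxa3, Anxa5 and Anxa9; 16.7% of all genes) and those of 0 wholly above (15.2%). Under treatment 2 lay wholly below (Anxa2 and Anxa3; 19.5%) and 4 wholly above (Anxa4, Anxa6, Anxa7 and Anxa11; 15.3%). With library totals in place of TMM the median over all genes moved from -0.06 to 0.14, and the calls became 3 lower and 2 higher: Anxa1 and Anxa5 no longer passed, while Anxa6 at 0.75 and Anxa7 at 0.44 passed as higher (edgeR adjusted p 0.0156 and 0.0483). The split over all genes moved from 1061 higher and 1966 lower to 1827 and 1450.

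**Figure D1:**
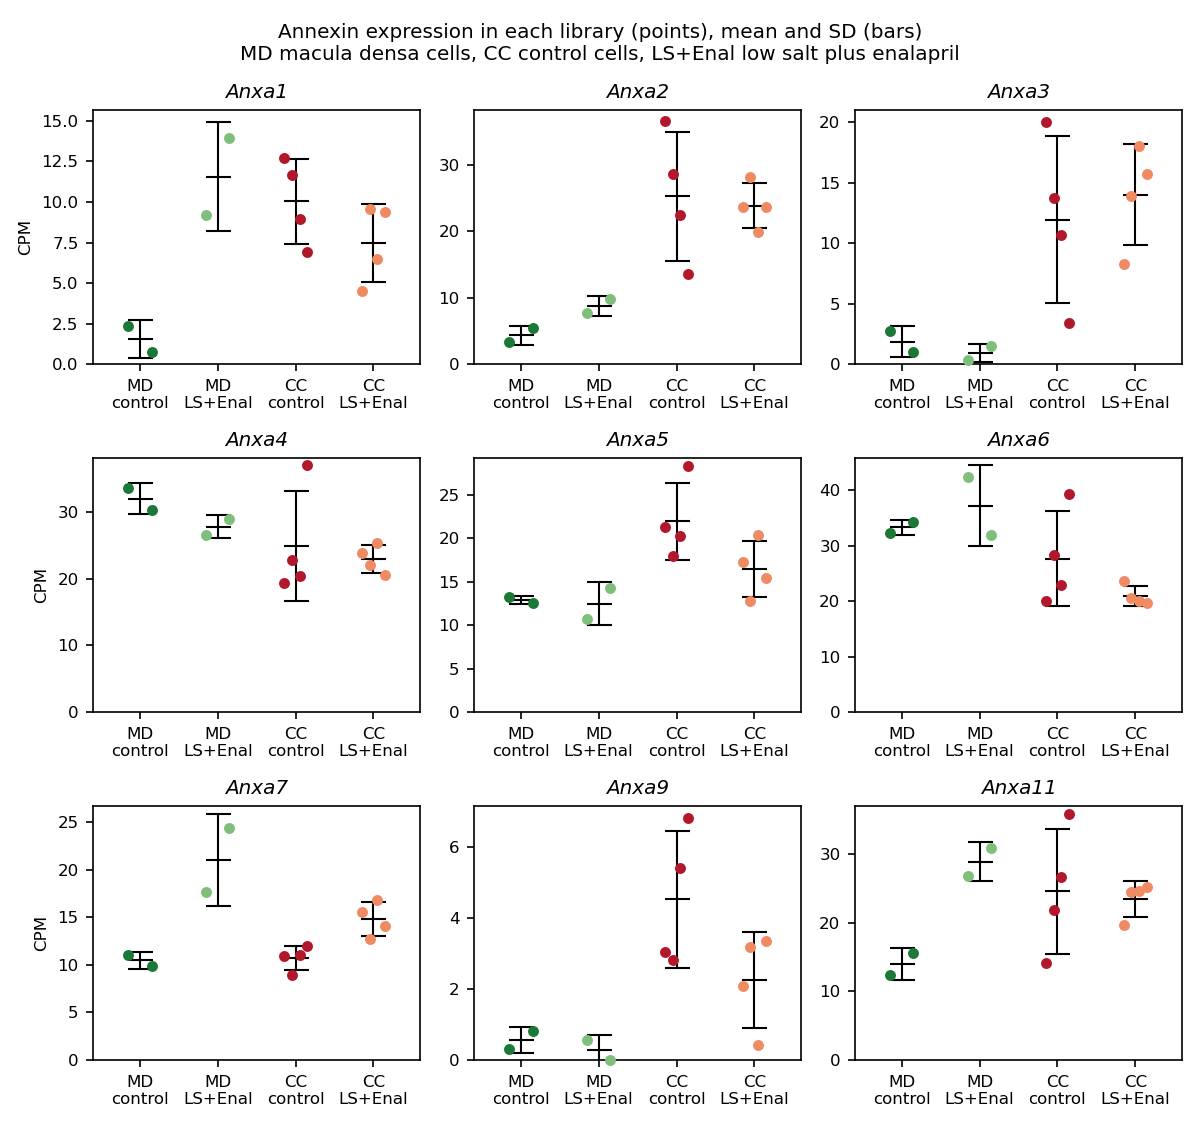
CPM of each annexin in every library (points) with the group mean and SD (bars); MD is macula densa cells, CC control cells and LS+Enal treated. Anxa2 and Anxa3 lie lower in all 4 macula densa libraries than in the control cells of the same diet, and Anxa1 is low only in the 2 macula densa libraries on control diet.

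Anxa2 lies on chromosome 9 from 69453620 to 69491795 (GRCm38, as for all positions here). It measured 3.28 and 5.38 CPM in macula densa cells on control diet, and 7.66 and 9.84 CPM under treatment. Control cells held 36.5, 28.6, 22.4 and 13.5 CPM in replicates 1 to 4 on control diet, and 23.6, 28.2, 20.0 and 23.7 CPM under treatment. Every macula densa library was below every control-cell library. The log2 fold change over both diets was -1.99 ± 0.27 (SE; edgeR adjusted p 0.000507). It was -2.53 on control diet (edgeR adjusted p 0.00360) and -1.44 under treatment (edgeR adjusted p 0.0391). The latter call was lost when any of 6 libraries was left out: treated macula densa replicate 1 or 2, treated control-cell replicate 1, 2 or 4, or control-cell replicate 3 on control diet. The edgeR adjusted p then reached 0.138. It was also lost with library totals and with limma voom.

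Anxa3, on chromosome 5 from 96793339 to 96845966, encodes an annexin abundant in neutrophils. Macula densa libraries held 2.77 and 0.977 CPM on control diet and 0.383 and 1.48 CPM under treatment, from 2 to 27 counts each. Control cells held 20.0, 13.7, 10.7 and 3.41 CPM on control diet and 8.30, 14.0, 18.1 and 15.8 CPM under treatment. There was no overlap between populations within a diet, although control-cell replicate 4 on control diet came close to the macula densa range. Anxa3 was at a log2 fold change of -2.69 on control diet (edgeR adjusted p 0.0397). That call was lost under 4 alternatives and without 7 of the 12 libraries: macula densa replicate 1 or 2 or control-cell replicate 1, 2 or 3 on control diet, or treated control-cell replicate 2 or 4, with an edgeR adjusted p of up to 0.302. Under treatment it was -3.84 (edgeR adjusted p 0.0168), a call lost under 3 alternatives and without either treated macula densa library. Over both diets the log2 fold change was -3.27 ± 0.53 (SE; edgeR adjusted p 0.00162). This was the largest of the 9 in size. Within each of the diets the populations did not overlap for Anxa2 and Anxa3, lower on both diets as in 7.6% of all genes. On both diets 0 members lay wholly higher (6.02%).

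Anxa9, an annexin with changed calcium-binding sites, lies on chromosome 3 from 95296096 to 95307176. It measured 0.308 and 0.815 CPM in macula densa cells on control diet against 3.06, 2.82, 5.43 and 6.82 CPM in control cells. Under treatment the macula densa libraries held 3 and 0 counts, and control cells 2.08, 3.18, 0.420 and 3.36 CPM. From the 3 counts against 75, control cells were 8.93-fold higher on that diet, with an exact 95% interval of 2.94 to 44.3 for counting error only. Over both diets the log2 fold change was -2.98 ± 0.66 (SE; edgeR adjusted p 0.00810), and it was -5.15 without treated macula densa replicate 1. Its exons overlap those of Mindy1 on the opposite strand, which held 65 to 283 counts, and whether strand was used in counting is not given, so the Anxa9 values are uncertain. With limma voom the call was lost (adjusted p 0.0640).

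Anxa5, the annexin used as a probe for phosphatidylserine on dying cells, lies on chromosome 3 from 36448923 to 36475894. It held 13.2 and 12.5 CPM in macula densa cells on control diet and 10.7 and 14.3 CPM under treatment. Control cells held 21.3, 17.9, 20.3 and 28.3 CPM on control diet and 17.3, 12.7, 20.4 and 15.5 CPM under treatment. The populations did not overlap on control diet and did on the other. The log2 fold change over both diets was -0.58 ± 0.18 (SE; edgeR adjusted p 0.0374). With library totals alone it was -0.38 with an edgeR adjusted p of 0.126, and the call was lost without 9 of the 12 libraries, with an edgeR adjusted p of up to 0.149 (macula densa replicate 2 on control diet left out). It held without control-cell replicate 2 on either diet and without control-cell replicate 4 on control diet. The call was lost under 5 of 10 alternatives. Among these were the replicate block by title numbers (-0.43, edgeR adjusted p 0.225) and by description numbers in 8 libraries (-0.37, edgeR adjusted p 0.122).

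The other 4 members did not pass in any of the 3 comparisons of cell populations. Anxa4, an epithelial annexin, held 33.6 and 30.4 CPM in macula densa cells on control diet and 26.6 and 29.0 CPM under treatment. Control cells ranged from 19.4 to 37.1 CPM over both diets, the highest being replicate 4 on control diet. The log2 difference over both diets was 0.32, with a 95% interval of -0.07 to 0.71 and an edgeR adjusted p of 0.239. Once that replicate was left out Anxa4 was called higher in macula densa cells, at 0.45 over both diets (edgeR adjusted p 0.0219). It also passed there with limma voom and sample weights.

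Anxa6, which carries a doubled annexin core, held 32.3 and 34.2 CPM in macula densa cells on control diet and 42.3 and 32.0 CPM under treatment. Control cells held 20.0, 28.4, 22.9 and 39.4 CPM on control diet and 23.6, 20.6, 20.0 and 19.6 CPM under treatment. Under treatment both macula densa libraries were above all control-cell libraries, as were those of Anxa4, Anxa7 and Anxa11. The log2 difference of Anxa6 over both diets was 0.55 with a 95% interval of 0.15 to 0.94, and its edgeR adjusted p of 0.0501 missed the threshold. It passed under 6 of 10 alternatives, and without control-cell replicate 4 on control diet (edgeR adjusted p 0.00558).

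For Anxa7 and Anxa11 the log2 differences over both diets were 0.23 and -0.26, with 95% intervals of -0.10 to 0.56 and -0.73 to 0.22. The edgeR adjusted p-values were 0.303 and 0.441. The sign of Anxa7 on control diet, at -0.04, changed with the scaling. Of the 50-base stretches of Anxa11 transcripts, 14.5% also occurred in the pseudogene Gm2260, which held 3 to 85 counts, so Anxa11 is uncertain. Summing the counts of both genes gave -0.33 over both diets (edgeR adjusted p 0.224). For each of the other 8 members at most 3.22% of stretches occurred in another gene, and no stretch was common to any pair of members. Exons of Anxa2, Anxa4 and Anxa11 overlap antisense or noncoding genes on the opposite strand (Gm16144, Gm44036 and Anxa11os), and those of Anxa3 overlap Gm42603 on its own strand, so reads there could not be assigned with certainty.

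**Figure D2:**
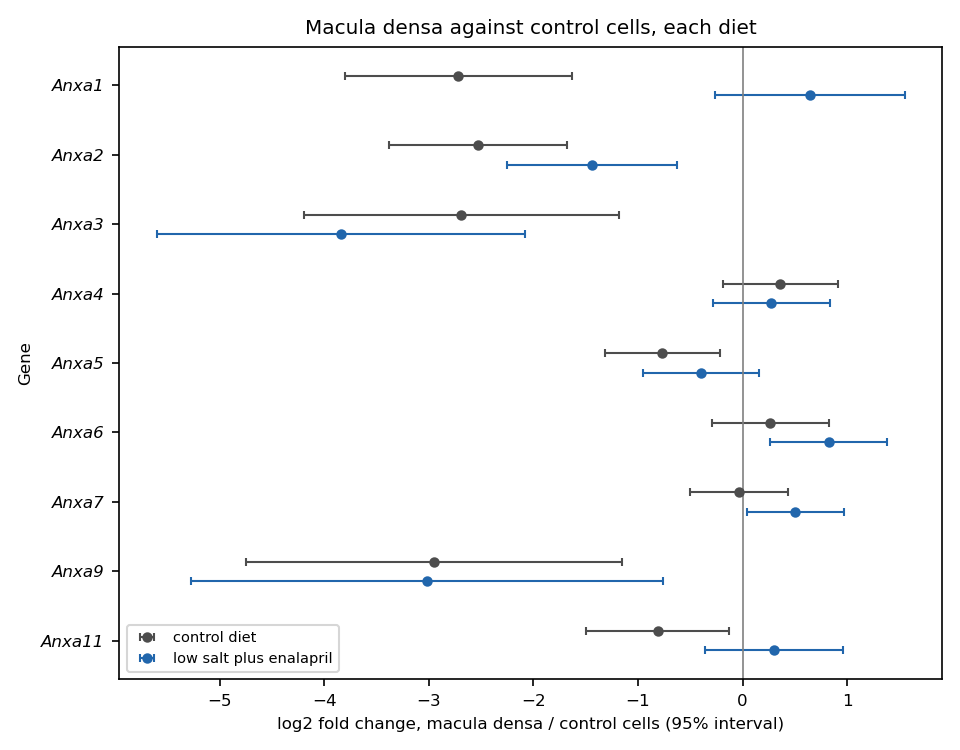
Log2 fold change of macula densa against control cells for each annexin on each diet, with 95% intervals from the edgeR fit of all 12 libraries. Anxa2, Anxa3, Anxa5 and Anxa9 lie below 0 on both diets, although the interval of Anxa5 under treatment reaches 0.16. Anxa1 is at -2.72 on control diet and 0.64 under treatment.

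Anxa1 lies on chromosome 19 from 20373428 to 20390944. In macula densa cells it measured 2.36 and 0.733 CPM on control diet, from 23 and 9 counts, and 9.20 and 13.9 CPM under treatment, from 48 and 85 counts. Control cells held 12.7, 11.7, 8.95 and 6.92 CPM on control diet and 4.53, 9.55, 6.51 and 9.36 CPM under treatment. The macula densa libraries on control diet were the lowest of all 12, and those under treatment lay among or above the control cells. The log2 fold change between the diets was 2.93 in macula densa cells (7.60-fold) and -0.44 in control cells. The difference of these, 3.36 ± 0.64 (SE), is the value for which the gene was picked, and it ran from 2.63 to 4.33 with a library left out. Between the cell populations the log2 fold change was -2.72 on control diet and 0.64 under treatment.

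Averaged over both diets, Anxa1 was lower in macula densa cells by a log2 fold change of -1.04 ± 0.32 (SE; edgeR adjusted p 0.0382). This is the average of the -2.72 on control diet and the 0.64 under treatment. Those values come from the libraries by which the gene was chosen, so this p-value is not free of the choice. Library totals alone gave -0.86 with an edgeR adjusted p of 0.0968, and leaving out macula densa replicate 2 on control diet gave -0.71 with an edgeR adjusted p of 0.154. The call was lost without 8 of the 12 libraries in all: treated macula densa replicate 1 or 2, treated control-cell replicate 2 or 4, control-cell replicate 1, 2 or 3 on control diet, or that one. Podocyte and endothelium markers summed to 51.5 and 33.6 CPM in the treated macula densa libraries, below the 347 CPM of replicate 1 on control diet and near the 49.2 CPM of replicate 2. The endothelial marker Plvap was at 0 in both treated libraries. The sum over 12 leukocyte markers was at most 4.62 CPM in every macula densa library. Other lists differed without overlap between the same libraries of the 2 diets, where 18.8% of single genes lay wholly higher under treatment and 21.8% wholly lower. From control diet to treatment, distal convoluted and connecting tubule markers went from 442 to 593 CPM to 764 to 822 CPM, and intercalated cell markers from 50.2 to 68.3 CPM to 96.9 to 112 CPM. Thick ascending limb markers went from 3415 to 4318 CPM to 2463 to 2628 CPM, and proximal tubule markers from 155 to 259 CPM to 54.2 to 121 CPM. Macula densa markers went from 2151 to 2427 CPM to 2656 to 3087 CPM. Endothelium markers went from 25.2 to 180 CPM to 10.3 to 14.6 CPM. The smooth muscle and renin cell list and the erythroid list were also lower without overlap. The part of any of these lists in the values of Anxa1 was not tested.

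Between the diets, 0 of the 9 members passed in either population by edgeR, where 0% of 14180 genes were called in macula densa cells and 0.00705%, a single gene, in control cells. At an unadjusted p under 0.05 there were, of the 8 members other than Anxa1, 3 in macula densa cells (Anxa2, Anxa7 and Anxa11; 11.2% of all genes) and 1 in control cells (Anxa7; 6.45%). Of these 8 the DESeq2 Wald test called 1 in macula densa cells, Anxa7, and 0 in control cells, where it called 0.656% and 0.522% of all genes. The same 3 genes had both treated macula densa libraries above both on control diet, as did 18.8% of all genes. Anxa4 had both below, as did 21.8%.

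Anxa7, also called synexin and known for aggregating secretory granules, lies on chromosome 14 from 20455260 to 20480133. It held 11.1 and 9.86 CPM in macula densa cells on control diet and 17.6 and 24.4 CPM under treatment. Control cells held 10.7 ± 1.29 CPM on control diet (SD, n = 4) and 15.6, 12.7, 16.8 and 14.1 CPM under treatment. It was the 1 annexin whose treated libraries lay above those on control diet in both populations, and in control cells 2.1% of all genes did so, with 2.09% wholly below and 0 members there. The log2 differences were 1.01 in macula densa cells (edgeR adjusted p 0.218) and 0.47 in control cells (edgeR adjusted p 0.694). Their difference was 0.54, with a 95% interval of -0.13 to 1.20 and an edgeR adjusted p of 0.761.

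Anxa11, on chromosome 14 from 25842156 to 25886804, binds the calcium sensor ALG-2 as Anxa7 does. It held 12.3 and 15.6 CPM in macula densa cells on control diet and 26.8 and 30.8 CPM under treatment, a log2 difference of 1.04 (edgeR adjusted p 0.325). Control cells held 14.1, 21.8, 26.6 and 35.7 CPM on control diet and 19.6, 24.5, 24.6 and 25.1 CPM under treatment. Their log2 difference was -0.07 (edgeR adjusted p 0.996), and it was 0.014 once the counts of Gm2260 were added. For Anxa2 the log2 differences were 1.01 in macula densa cells (edgeR adjusted p 0.399) and -0.08 in control cells (edgeR adjusted p 0.996).

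The remaining members had diet differences between -1.05 and 0.22, and none had an unadjusted p under 0.05. Anxa4 was at -0.20 in macula densa cells (95% interval -0.85 to 0.45) and -0.12 in control cells (-0.58 to 0.34). The intervals of Anxa3 and Anxa9 in macula densa cells ran from -2.91 to 1.04 and from -3.69 to 1.60. A change of several fold could thus not be excluded with these counts and 2 macula densa libraries on each diet. The difference of the 2 diet effects was called for 0 of the 9 and for 0% of all genes, and 2 of the 8 members other than Anxa1 had an unadjusted p under 0.05 (Anxa2 and Anxa11; 7.03% of all genes).

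**Figure D3:**
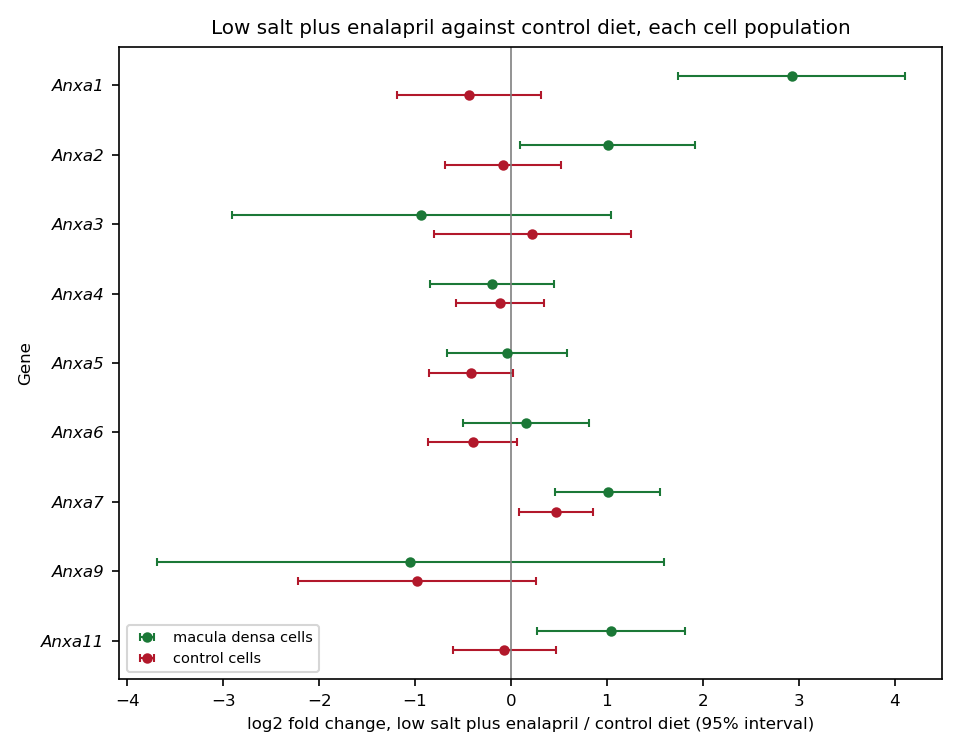
Log2 fold change of treated against control diet for each annexin in macula densa and in control cells, with 95% intervals from the edgeR fit. No annexin passed the adjusted threshold in either population. Anxa1, picked for this difference, is at 2.93 in macula densa cells and -0.44 in control cells, and Anxa2, Anxa7 and Anxa11 are near 1 in macula densa cells.

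Levels of different genes were compared as CPM per kb of exon length. In macula densa cells Anxa6 was the highest annexin on both diets, at 11.4 ± 0.458 and 12.7 ± 2.50 CPM per kb (SD, n = 2 each), and its range did not overlap that of the next, Anxa5. On control diet Anxa5 and Anxa4 followed at 7.25 and 6.89 CPM per kb with overlapping ranges. Anxa11, Anxa7 and Anxa2 came next at 3.38, 1.75 and 1.16 CPM per kb, each apart from its neighbour. Anxa1, Anxa3 and Anxa9 were lowest at 0.531, 0.514 and 0.271 CPM per kb, and neighbours among them overlapped.

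Under treatment Anxa11, at 6.97 CPM per kb, overlapped Anxa5 at 7.03, and Anxa1, next after Anxa4, was at 3.97 with a range that overlapped that of Anxa7 at 3.51. In control cells Anxa5 led on both diets at 12.4 ± 2.51 and 9.27 ± 1.81 CPM per kb (SD, n = 4 each), followed by Anxa6, Anxa2, Anxa11 and Anxa4. There the ranges of all neighbours in the order overlapped on control diet, and under treatment all but Anxa7 and Anxa9. The 9 members together summed to 111 and 111 CPM in the macula densa libraries on control diet, 142 and 156 CPM under treatment, and 138 to 183 CPM in control cells.

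Within the control cells on control diet, podocyte and endothelium markers and Anxa1, Anxa2 and Anxa3 were each highest in replicate 1, followed by replicates 2, 3 and 4. Parietal epithelium markers stood in the same order, at 115, 102, 95.9 and 65.1 CPM. Markers of several tubule segments stood in the opposite order in replicates 1 to 4. These were 134, 303, 463 and 900 CPM for collecting duct principal cells and 217, 305, 1038 and 1634 CPM for the thick ascending limb. Intercalated cell markers held 33.0, 121, 175 and 500 CPM, and distal convoluted and connecting tubule markers 248, 269, 386 and 919 CPM. Macula densa markers, which share Slc12a1 with the thick ascending limb list, held 44.6, 70.2, 232 and 342 CPM. Proximal tubule markers did not follow that order, at 49.9, 57.1, 108 and 46.6 CPM. Replicate 4, with 111 CPM of podocyte and endothelium markers, was the lowest of the 4 for Anxa1, Anxa2 and Anxa3. It was the highest for Anxa4, Anxa5, Anxa6, Anxa7, Anxa9 and Anxa11. Under treatment, replicates 2 and 4, with the most podocyte and endothelium markers, also held more Anxa1 than replicates 1 and 3, while Anxa3 was highest in replicate 3. Parietal epithelium markers were at 134, 79.1, 121 and 98.8 CPM in treated replicates 1 to 4. The part of any of these cells in the results was not tested. Without control-cell replicate 4 on control diet, 4 of the 8 members other than Anxa1 were called on that diet, Anxa2, Anxa3 and Anxa9 lower and Anxa4 higher in macula densa cells, and 17.7% of all genes were called.

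**Figure D4:**
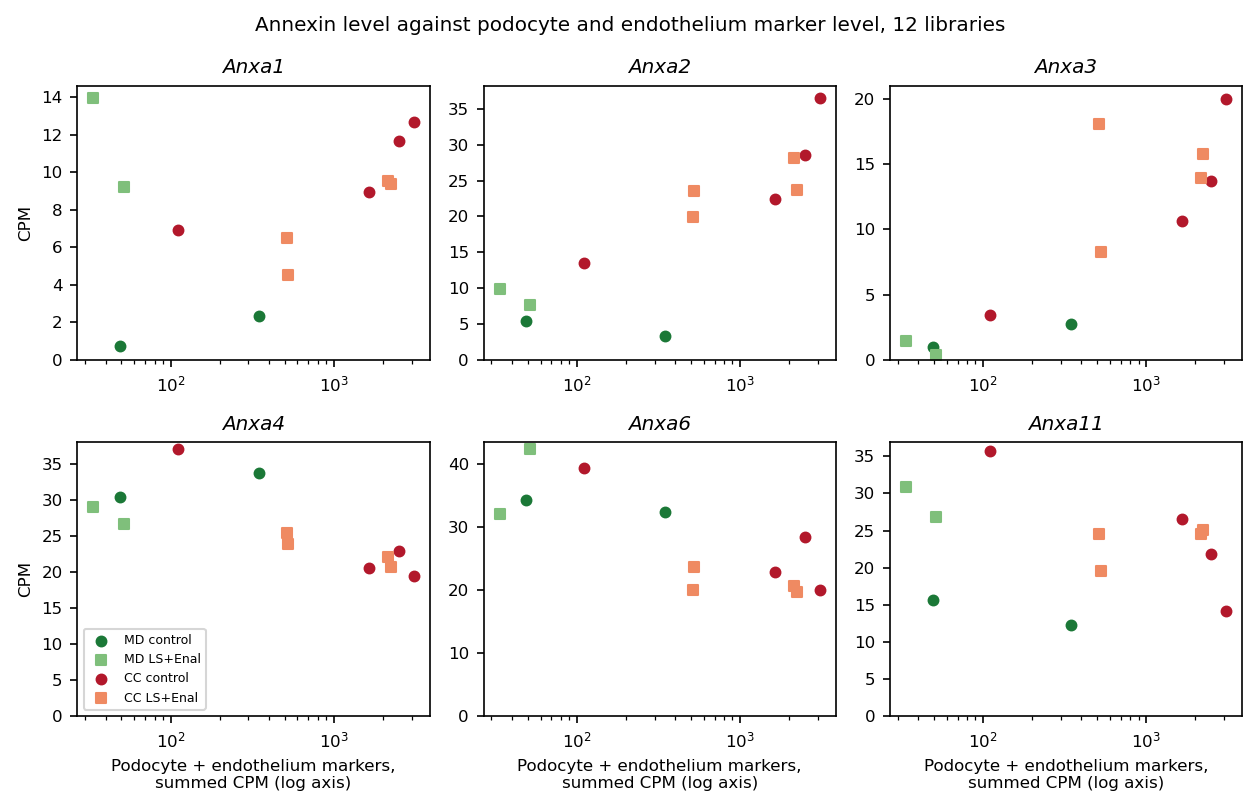
CPM of 6 annexins in each of the 12 libraries against the summed CPM of 9 podocyte and 10 endothelium markers (log axis); circles are control diet and squares treated, green macula densa (MD) and red or orange control cells (CC). The macula densa libraries under treatment hold 33.6 and 51.5 CPM of markers and 13.9 and 9.20 CPM of Anxa1.

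The genes whose log2 CPM was most like that of Anxa1 over the 12 libraries, among 6688 genes with a mean of at least 5 CPM, were Rasa2, Kctd12, Alcam, Crebzf and Cdan1. Their Pearson r ran from 0.85 to 0.90, as a description of libraries that share groups. Alcam, a cell adhesion molecule, held 3.83 to 6.67 CPM in macula densa cells on control diet and 15.9 to 19.9 CPM under treatment, against 18.5 to 39.8 CPM in control cells. Without macula densa replicate 2 on control diet, 0 of the 5 remained among the 5 most alike, and without control-cell replicate 4 on that diet 1 did. Among the annexins themselves r was highest between Anxa2 and Anxa3, at 0.82, and lowest between Anxa3 and Anxa6, at -0.89.

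In the comparison of cells over both diets, to be read against 13.9% of all genes lower and 7.48% higher, 1 of the 4 S100 partners tested (of 6) was lower and 0 higher. S100a10, the partner of annexin A2, held 6.57 and 7.98 CPM in macula densa cells on control diet. It lay below all control-cell libraries at 8.47 to 11.7 CPM, as did 16.7% of all genes. Under treatment it held 14.1 ± 2.04 CPM (SD, n = 2) and 13.8 ± 1.47 CPM (SD, n = 4). Its log2 difference over both diets was -0.23 (edgeR adjusted p 0.321). S100a11, a partner of annexin A1, was at 0.05 (edgeR adjusted p 0.869). For both partners all treated libraries were above those on control diet in both populations. Of all genes, 18.8% did so in macula densa cells and 2.1% in control cells. The log2 diet differences of the partners in macula densa cells were 0.95 and 0.63 (edgeR adjusted p 0.244 and 0.443). S100a6, the S100 gene called lower, held 0 to 4 counts in macula densa libraries and 0.826 to 5.39 CPM in control cells (edgeR adjusted p 0.00120).

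Of 5 phospholipase A2 genes, 2 were higher in macula densa cells over both diets (7.48% of all genes) and 0 lower (13.9%). Pla2g4a, the cytosolic phospholipase A2 that releases arachidonic acid, held 21.4 and 23.8 CPM in macula densa cells on control diet and 42.5 and 31.8 CPM under treatment. Control cells ranged from 2.75 to 5.79 CPM, below every macula densa library. Its log2 fold change over both diets was 2.69 ± 0.20 (SE; edgeR adjusted p 8.39e-06). Pla2g12a was at 0.83 (edgeR adjusted p 0.0130).

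Of 11 membrane repair genes, 10 were tested, and 7 were lower in macula densa cells (13.9% of all genes) and 0 higher (7.48%), with a median log2 fold change of -1.05. Ahnak, a giant scaffold that binds the annexin A2 and S100A10 complex, held 120.8 and 73.5 CPM in macula densa cells on control diet and 197 and 205 CPM under treatment. Control cells held 267 to 422 CPM. Its log2 fold change over both diets was -1.30 ± 0.17 (SE; edgeR adjusted p 0.000363), at -1.99 on control diet and -0.60 under treatment. Cavin1 and Cav1, which build caveolae, were at -3.25 and -2.64, and the ferlin Dysf, a membrane repair protein, at -3.09 (edgeR adjusted p 4.19e-05, 0.00855 and 0.00567). In the same comparison 10 of 10 endothelium, 8 of 9 podocyte and 8 of 8 collecting duct principal cell markers were lower (13.9% of all genes). Higher were 5 of 6 macula densa and 5 of 9 thick ascending limb markers (7.48% of all genes). The part of any of these cells in the membrane repair list was not tested.

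Of 6 plasminogen system genes, 4 were lower in macula densa cells over both diets (13.9% of all genes) and 0 higher (7.48%). Plat, the tissue plasminogen activator, held 27.8 and 3.67 CPM in macula densa cells on control diet and 1.92 and 0.164 CPM under treatment. Control cells ranged from 3.82 to 282 CPM, and the lowest of them was again replicate 4 on control diet (edgeR adjusted p 0.00545). Of 9 glucocorticoid response genes, 3 were lower (Tsc22d3, Sgk1 and Dusp1; 13.9% of all genes) and 0 higher (7.48%). Of 8 ALG-2 and ESCRT partners, 1 was higher, Gca at 1.74 (edgeR adjusted p 0.0110; 7.48% of all genes), and 0 lower (13.9%). Between the diets, 0 genes of these lists were called in either population by edgeR. The formyl peptide receptors were not analysed here.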

How the data were processed

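RNA was measured by sequencing in 12 libraries of sorted mouse kidney cells. Per the submitters' processing notes, STAR 2.61, Partek and the mm10 genome were used. Which step counted the reads, and whether strand was used, is not given in the sources used here. The deposited values are estimated counts per gene, of which 16.07% were not whole, and they were rounded before testing. No column lacked a sample. Gene positions are those of GENCODE M21 on GRCm38.

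R 4.3.3 and edgeR 4.0.16 were used. The function filterByExpr (count minimum 10, total minimum 15) kept 14180 genes, which were scaled by TMM. All 12 libraries entered a single quasi-likelihood fit, 1 coefficient for each group, with Benjamini-Hochberg adjustment over all genes at 0.05. Standard errors were derived from the F statistic, and 95% intervals from them. The fit was tested on simulated data. Log2 CPM used a prior count of 2. The members and gene lists were chosen with earlier results of these data known. All members are named, with S100a10 and S100a11, genes of the other lists that were called, and the 5 genes most like Anxa1. Intervals cover counting error only where so stated. Alternatives used limma 3.58.1, DESeq2 1.42.0, other scalings and filters, blocks and left-out libraries. A sum of Anxa11 with Gm2260 was added after the data were seen, as was leaving out libraries from the likeness to Anxa1.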

Additional observations from a re-analysis of the deposited data

Results flagged for a closer look

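Of 18 sets of 4 control-cell libraries, 1 held a library far from the others, where chance gives 0.9. Anxa11 was at 4.31 log2 CPM in treated control-cell replicate 1, against 4.63 to 4.66 in the other 3.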

How the results depend on the processing

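The calls of Anxa2 and Anxa3 over both diets held under every alternative run. Of the 8 members other than Anxa1, 2 were called on control diet (6.61% of all genes). This became 4 with the DESeq2 Wald test (14.1%) and 4 with a replicate block by the numbers in the descriptions (8 libraries, 16.2%). It became 1 (Anxa3 lost) with library totals (6.14%), with only the groups compared (3.54%) and at an adjusted p of 0.01 (1.7%). It was also 1 with a replicate block by the numbers in the titles (2.67%) and with limma voom and the description block as a correlation (7.96%). With a library left out it ran from 1 to 4 (4 without control-cell replicate 4 on control diet, 17.7%). Under treatment 2 of those 8 were called, both lower (7.27% of all genes called in either direction). This became 4 with the Wald test (13.6%) and 4 with the block by description numbers (16.0%), each with Anxa9 lower and Anxa6 higher added. It became 3 with library totals (7.95%), with Anxa3 lower, Anxa6 and Anxa7 higher, and Anxa2 lost. It became 1 with the replicate block by title numbers (2.79%). It became 0 with limma voom (3.64%), with limma voom and the description block as a correlation (4.61%) and at an adjusted p of 0.01 (1.77%). With a library left out it ran from 0 to 3, at 0 without treated macula densa replicate 1 or 2 (3.69% and 1.22%). It was 3 without treated control-cell replicate 3 (Anxa9 lower added, 7.4%) and without control-cell replicate 4 on control diet (Anxa6 higher added, 13.5%). Over both diets it was 5 and became 3 at 0.01, 3 with the replicate block by title numbers, 4 with no filter, 6 with the Wald test, with the block by description numbers and with that block as a correlation, and 3 to 7 with a library left out (7 without control-cell replicate 4 on control diet). Between the diets in macula densa cells 0 of all 9 members were called. This became 2 with the Wald test (0.656% of all genes) and 1 with those libraries fitted alone (0.927%). For the difference of diet effects 0 became 1 with the Wald test (0.0917%). Each of these diet counts above 0 holds Anxa1, which was chosen by this effect, so it is no support for it. The other 8 members gave 1 (Anxa7), 0 and 0. The cause was not tested.

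Deviations from the group means of same-numbered libraries correlated at -0.04 to 0.23 for description numbers and -0.38 to 0.28 for title numbers. Of the 8 libraries with a shared description number, 3 correlated best with their own. The consensus correlation within a description number was 0.165. The main fit did not pair the libraries. With 2 macula densa libraries in each group their deviations mirror each other, so this check cannot decide whether the numbers pair the libraries.

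Values that changed sign were not called. Anxa7 between cells on control diet (-0.04) became 0.15 with library totals, 0.019 with limma voom, and 0.053 and 0.066 with the replicate block by title and description numbers, and ran from -0.10 to 0.10 with a library left out. Anxa11 over both diets became 0.017 with the replicate block by title numbers, and Anxa9 in the difference of diet effects 0.040. In control cells between diets Anxa4 and Anxa11 became 0.029 and 0.090 with limma voom, and Anxa11 0.014 when summed with Gm2260. With a library left out, the diet values in control cells ran from -0.29 to 0.17 for Anxa2, from -0.088 to 0.61 for Anxa3, from -0.21 to 0.14 for Anxa4 and from -0.25 to 0.17 for Anxa11; in macula densa cells from -0.32 to 0.075 for Anxa5 and from -0.13 to 0.29 for Anxa6; and in the difference from -0.34 to 0.0021 for Anxa4 and from -4.45 to 0.93 for Anxa9. The small counts of Anxa3 and Anxa9 in macula densa cells, and the 2 libraries on each diet, limit what their diet comparison can show.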
